A study of Mus musculus with 8 samples.

Results

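The interferon response genes are 33 transcripts that cells raise when interferon engages its receptors. They were chosen by name, as the rows of the count table whose gene symbol is on the list, and all 33 were found among the 53801 genes of the table. RNA-seq libraries came from stromal cells of MO5 tumors, melanomas that grow from B16 mouse melanoma cells carrying an ovalbumin gene and that were implanted under the skin of ADAM12-GFP mice. These mice, adults of the C57Bl/6 background, carry a bacterial artificial chromosome transgene in which Adam12 sequences drive GFP, so the reporter marks cells that use Adam12. All cells were sorted as PDGFRα+ and PDPN+ after removal of CD45+ leukocytes and CD31+ endothelial cells, and no group received a treatment. The comparison set 4 libraries of ADAM12+ (GFP+) cells against 4 libraries of ADAM12- (GFP-) cells from the same gate. It asks how these genes differ between the reporter groups and how far libraries of the same group differ from each other. The study takes n as the number of mice unless it says otherwise, and the labels do not say which mouse gave which library.

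Type I interferons signal through the receptor chains Ifnar1 and Ifnar2, and interferon-gamma signals through Ifngr1 and Ifngr2. Both routes use JAK kinases to activate STAT proteins. Type I signaling sends a complex that holds STAT2 and IRF9 to the interferon-stimulated response element (ISRE), whereas interferon-gamma acts through the gamma-activated site (GAS). In tumors, stromal cells can respond to interferon from neighboring cells, and the induced genes encode nucleic acid sensors, antiviral effectors and regulators of the pathway itself.

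The promoters of these genes were read first, because ISRE and GAS are the sequences through which the family is known to be induced. RefSeq windows of 300 bases (build GRCm38.p6), from 250 bases before the transcription start to 50 after it, were matched for 24 of the 33 genes by symbol. The ISRE core was searched as GAAANNGAAA and the GAS core as TTCNNNGAA, on both strands, and the matches of one core may overlap those of the other. Some genes have more than 1 window, and the 24 genes have 28. An ISRE core was present in 13 of the 24 genes, or 46.4% of their windows, and in 3.44% of all 32851 promoter windows. A GAS core was present in 6 of the 24 genes, or 21.4% of their windows, and in 8.3% of all windows. The stretches below are 5′ to 3′ and end at the start. Those of Irf7 and Gbp2 were shortened to end 27 and 31 bases before it, and their last 30 bases lie in exons of the GENCODE annotation, whose gene span begins further upstream. Capitals mark ISRE and GAS cores. They show the 3 called genes with a window. For each of the 6 role groups where a stretch held a core, a further gene is shown. It is the gene with a core in its stretch and the highest level per kilobase of exon over both groups. No stretch of the sensors or of the other induced genes held a core.
Ifih1, chr2:62646256-62646415, minus strand: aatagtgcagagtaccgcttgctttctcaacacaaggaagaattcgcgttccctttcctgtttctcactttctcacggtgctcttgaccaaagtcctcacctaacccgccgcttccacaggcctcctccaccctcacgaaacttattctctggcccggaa
Irf7, chr7:141266452-141266584, minus strand: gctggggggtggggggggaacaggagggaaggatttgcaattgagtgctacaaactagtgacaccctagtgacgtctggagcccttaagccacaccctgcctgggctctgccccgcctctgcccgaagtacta
Ifit2, chr19:34550534-34550693, plus strand: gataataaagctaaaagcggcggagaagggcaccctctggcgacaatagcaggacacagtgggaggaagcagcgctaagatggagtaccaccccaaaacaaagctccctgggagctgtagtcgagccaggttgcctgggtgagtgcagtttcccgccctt
Irf1, chr11:53769854-53770013, plus strand: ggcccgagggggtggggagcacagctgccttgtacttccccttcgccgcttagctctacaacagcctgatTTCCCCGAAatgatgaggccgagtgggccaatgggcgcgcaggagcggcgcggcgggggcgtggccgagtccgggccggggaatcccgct
Isg15, chr4:156200819-156200978, minus strand: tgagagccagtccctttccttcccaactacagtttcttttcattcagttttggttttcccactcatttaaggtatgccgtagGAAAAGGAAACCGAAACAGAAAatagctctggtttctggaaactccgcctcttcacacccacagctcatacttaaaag
Ifit3, chr19:34583369-34583528, plus strand: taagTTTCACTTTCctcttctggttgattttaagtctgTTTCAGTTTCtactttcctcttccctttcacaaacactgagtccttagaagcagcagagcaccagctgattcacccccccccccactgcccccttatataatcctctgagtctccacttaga
Oas1a, chr5:120907526-120907685, minus strand: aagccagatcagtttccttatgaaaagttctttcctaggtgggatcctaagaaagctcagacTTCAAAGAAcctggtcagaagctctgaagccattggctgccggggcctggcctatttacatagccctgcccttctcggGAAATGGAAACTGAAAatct
Bst2, chr8:71537473-71537632, minus strand: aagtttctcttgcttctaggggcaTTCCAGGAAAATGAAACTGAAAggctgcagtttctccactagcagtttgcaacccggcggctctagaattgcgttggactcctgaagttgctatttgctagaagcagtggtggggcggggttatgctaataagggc
Gbp2, chr3:142620503-142620631, plus strand: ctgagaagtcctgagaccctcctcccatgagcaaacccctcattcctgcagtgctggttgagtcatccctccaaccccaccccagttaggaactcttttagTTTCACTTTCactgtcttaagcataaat

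Isg15 carried 3 overlapping ISRE cores that began 78, 72 and 66 bases before the start. Ifit3 carried 2, at 156 and 122 bases, and Gbp2 carried 1, at 59 bases. In Oas1a the 2 overlapping ISRE cores lay at 20 and 14 bases and a GAS core at 98, and in Bst2 a GAS core at 136 bases overlapped the first of 2 ISRE cores, at 130 and 124. The marked stretch of Irf1 is a GAS core at 90 bases. The stretches of Irf7 and Ifit2 held neither core, although the window of Ifit2 held a GAS core at 241 bases. In Ifih1 the only match was an ISRE core 33 bases after the start, which is outside the stretch. The 13 genes with an ISRE core had log2 fold changes from -0.67 to 0.68 with a median of 0.16. The 11 with a window and no ISRE core ranged from -1.32 to 0.89 with a median of 0.01. Genes with the core therefore lay on both sides of 0, as did those without it.

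Values are read counts divided by a size factor per library (normalized counts), a scale that removes differences in depth. Total counts ran from 883144 to 17535099 in GFP- and from 8776925 to 31666734 in GFP+ libraries. GFP- replicate 3, the shallowest, had a size factor of 0.091 and held 12 to 301 reads for each of the 33 genes, so its values carry the largest counting error. Adam12, the reporter gene, was 1.69-fold higher in GFP+ cells (DESeq2 adjusted p = 0.0266, edgeR 0.0643). That call was lost without GFP- replicate 3 (0.0689) or 4 (0.0852) and without GFP+ replicate 2 (0.0767) or 4 (0.117). Both Pdgfra and Pdpn, the markers of the sort, were detected in every library and were 2.5-fold and 1.63-fold higher in GFP+ cells (DESeq2 adjusted p = 1.93e-12 and 0.0134, edgeR 0.00105 and 0.0438). Fold changes between groups are those of the DESeq2 fit, which can differ slightly from the ratio of the means. The call of Pdpn was lost when GFP- replicates 1 and 4 (0.0563 and 0.0644) and GFP+ replicate 3 (0.0799) were left out in turn. The counts behaved as reads over whole gene spans: all 465 protein-coding genes lying inside other genes on the same strand had 0 reads, against 18.9% of 17745 genes outside any such span. Of the 33 genes, Rtp4 shares 42.4% of its span, Gbp7 3.22% and Irf9 1.9%, and the rest share none. Reads of close paralogs (the IFIT, OAS, MX and GBP families) can be lost or split in counting, so their levels are uncertain.

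Of the 33 genes, 4 passed a DESeq2 adjusted p under 0.05, with 2 on each side. Ifih1 and Irf7 rose in GFP+ cells, and Ifit2 and Ifi27 fell. Among all 15283 tested genes, 4.66% were called higher and 4.76% lower, against 2 of 33 in each direction here. At an unadjusted p under 0.05 the DESeq2 count was 11 of 33 and that of all tested genes 21%. The edgeR quasi-likelihood test called the same 4 genes, in the same directions, against 2.83% of its tested genes called higher and 2.28% called lower. The median log2 fold change of the 33 genes was 0.07, with 19 positive and 14 negative values, and that of all tested genes was -0.01. In 3 genes every GFP+ library lay above every GFP- library (Irf7, Ifih1 and Ifit1), which held for 6.37% of tested genes. In 3 others every GFP+ library lay below (Ifit2, Ifi27 and Zbp1), which held for 5.95%. With trimmed-mean (TMM) scaling the first 3 and Ifit2 kept this separation, whereas the libraries of Ifi27 and Zbp1 overlapped. In bulk RNA, a change in the share of expressing cells and a change in the RNA of each cell cannot be told apart.

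**Figure D1:**
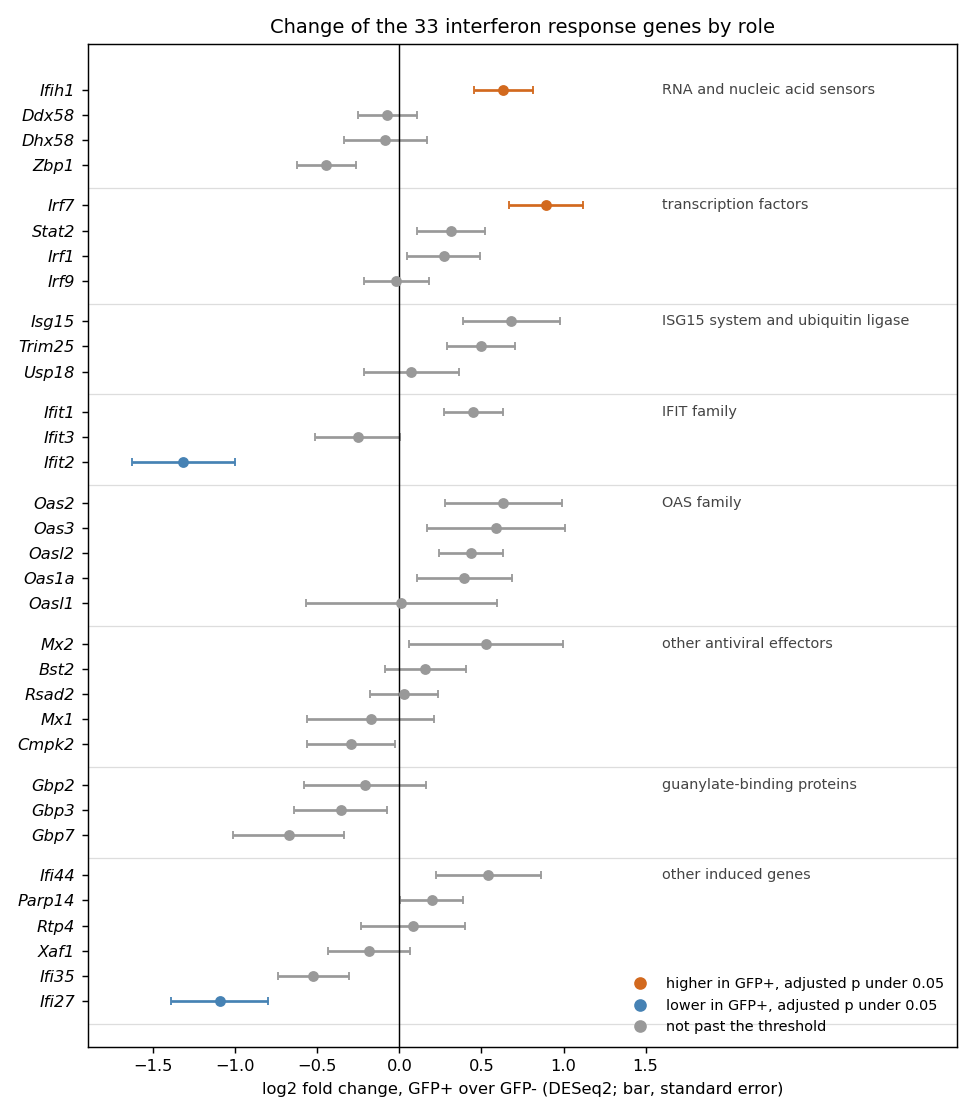
Log2 fold change of each of the 33 genes, GFP+ over GFP- (x axis, DESeq2; bars, standard error), grouped by role. Colors mark the 2 genes called higher and the 2 called lower, and values run from -1.32 for Ifit2 to 0.89 for Irf7.

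Of the 4 sensors of foreign nucleic acid, Ifih1 alone was called. Ifih1 (ENSMUSG00000026896, chromosome 2, 62595798 to 62646255, minus strand, GRCm38) encodes MDA5, a cytosolic sensor of long double-stranded RNA. Its normalized counts were 1296, 1123, 1121 and 1146 in GFP- replicates 1 to 4 and 2265, 1467, 1668 and 1886 in GFP+ replicates 1 to 4. The GFP- libraries lay close together and all below the GFP+ libraries. Ifih1 rose 1.55-fold, from 1171 ± 83.7 (SD, n = 4) to 1822 ± 342, or 0.63 ± 0.18 (SE) in log2 fold change, at an adjusted p of 0.00873 by DESeq2 and 0.0383 by edgeR. Without GFP- replicate 2 the log2 fold change was 0.61 and the DESeq2 adjusted p 0.0556, the only loss of a call among the 4 genes when single libraries were left out.

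Zbp1, a sensor of nucleic acid in the Z form that can trigger necroptosis, had the highest level per kilobase of exon among the sensors. Its normalized counts were 2575, 2164, 2088 and 3018 in GFP- and 1955, 1529, 1793 and 1988 in GFP+ libraries. Zbp1 had a log2 fold change of -0.45 ± 0.18 (SE) and an adjusted p of 0.1 by DESeq2. It passed the threshold only without GFP- replicate 3 (-0.52, DESeq2 adjusted p = 0.0432) among the fits that left out 1 library. Ddx58, which encodes RIG-I, and Dhx58, which encodes its relative LGP2, had log2 fold changes of -0.07 and -0.09. Their libraries overlapped between the groups, and Ddx58 was the gene with the smallest spread of all 33 in GFP+ cells, 1030 to 1149.

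Among the transcription factors, Irf7 differed most. Irf7 (ENSMUSG00000025498, chromosome 7, 141262706 to 141266481, minus strand) encodes a factor that amplifies type I interferon production. Its normalized counts were 687, 775, 1351 and 1039 in GFP- and 1977, 1565, 1754 and 1723 in GFP+ libraries. GFP- libraries spread 1.97-fold from lowest to highest and GFP+ libraries 1.26-fold, without overlap. Irf7 rose 1.86-fold, from 963 ± 299 (SD, n = 4) to 1755 ± 170, or 0.89 ± 0.23 (SE) in log2 fold change, at an adjusted p of 0.00231 by DESeq2 and 0.0219 by edgeR. Across the fits that left out 1 library its log2 fold change ran from 0.76 to 1.06.

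Irf1, a factor induced by interferon-gamma, had the highest level per kilobase of exon of the transcription factors in both groups, 765 and 923 normalized counts per kilobase in GFP- and GFP+ cells. Per kilobase of gene span it was 364 and 439, below Irf7 (465) in GFP+ cells. Normalized counts of Irf1 were 2399, 2637, 2945 and 4188 in GFP- and 3855, 3246, 3032 and 4551 in GFP+ libraries, which overlapped. The log2 fold change was 0.27 ± 0.22 (SE, DESeq2 adjusted p = 0.546). Stat2 and Irf9, partners in the complex that binds the ISRE, had log2 fold changes of 0.31 and -0.02 (DESeq2 adjusted p = 0.403 and 0.98).

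No gene of the ISG15 system was called by DESeq2 or edgeR, and 2 of the 3 had an unadjusted p under 0.05 by each tool. Isg15 encodes a ubiquitin-like protein that is attached to other proteins after interferon. It had normalized counts of 223, 298, 187 and 387 in GFP- and 611, 328, 452 and 419 in GFP+ libraries. GFP+ replicate 1 was highest, and GFP- replicate 4 lay above GFP+ replicate 2. Isg15 had a log2 fold change of 0.68 ± 0.30 (SE) and an adjusted p of 0.143 by DESeq2. Trim25, a ubiquitin ligase that activates RIG-I, had a log2 fold change of 0.50 ± 0.21 (SE, DESeq2 adjusted p = 0.12), which passed the threshold without GFP+ replicate 1 (0.64, DESeq2 adjusted p = 0.0159). Usp18, which removes ISG15 and restrains type I receptor signaling, had a value of 0.07 (DESeq2 adjusted p = 0.937).

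The 3 IFIT genes, neighbors on chromosome 19 that encode RNA-binding antiviral proteins, included 1 called gene, Ifit2. Ifit2 (ENSMUSG00000045932, chromosome 19, 34550694 to 34576419, plus strand) had normalized counts of 1415, 1162, 956 and 1638 in GFP- and 283, 558, 436 and 805 in GFP+ libraries. The highest GFP+ library lay below the lowest GFP- library. Ifit2 was 2.49-fold lower in GFP+ cells, at 521 ± 220 (SD, n = 4) against 1293 ± 297, or -1.32 ± 0.31 (SE) in log2 fold change, at an adjusted p of 0.000906 by DESeq2 and 0.0189 by edgeR. Leaving out single libraries gave -1.61 to -1.11. Ifit1 was higher in every GFP+ library, with 1616, 1139, 1275 and 1455 in GFP- and 1627, 1738, 2151 and 2000 in GFP+ libraries, but its log2 fold change of 0.45 ± 0.18 (SE) had a DESeq2 adjusted p of 0.0949. Ifit3, the IFIT gene with the highest level per kilobase in GFP- cells, had 1316, 1129, 681 and 1545 in GFP- and 1028, 782, 927 and 1232 in GFP+ libraries, which overlapped. Ifit3 had a log2 fold change of -0.25 ± 0.26 (SE, DESeq2 adjusted p = 0.643).

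**Figure D2:**
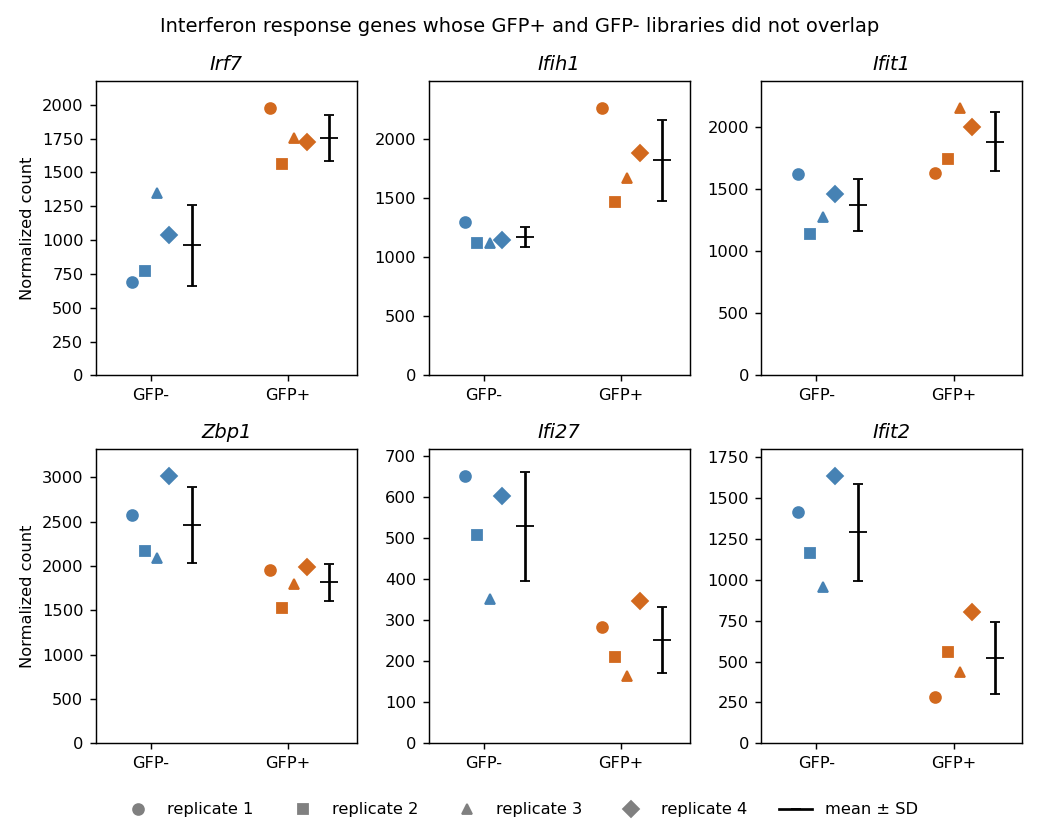
Normalized counts (y axis from 0) in each of the 4 GFP- and 4 GFP+ libraries for the 6 genes whose groups did not overlap; symbols mark the replicate number and bars the mean ± SD. Irf7, Ifih1 and Ifit1 were higher in all GFP+ libraries, and Zbp1, Ifi27 and Ifit2 lower, although Zbp1 and Ifi27 overlapped with TMM scaling.

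All 5 OAS genes had positive log2 fold changes, from 0.01 to 0.63. None was called by DESeq2 or edgeR, and 1, Oasl2, had an unadjusted p under 0.05 by each tool. OAS enzymes make short oligoadenylates that switch on RNase L, and Oasl2 encodes an active enzyme of this kind in mice, unlike Oasl1. Oasl2 had the highest level per kilobase of the family, with normalized counts of 1315, 1574, 1758 and 2147 in GFP- and 2626, 1935, 2281 and 2354 in GFP+ libraries. Only GFP- replicate 4 reached into the GFP+ range. Oasl2 had a log2 fold change of 0.44 ± 0.20 (SE, DESeq2 adjusted p = 0.161), which became 0.58 (0.0299) when GFP- replicate 4 was left out. Oas2 had 318, 358, 505 and 541 in GFP- and 1140, 466, 386 and 665 in GFP+ libraries, so its mean difference rested largely on GFP+ replicate 1. Oas2 had a log2 fold change of 0.63 ± 0.35 (SE, DESeq2 adjusted p = 0.3), and the lowest value with 1 library left out was 0.26.

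Oas3 showed a library apart in GFP- cells. It had 81.4 normalized counts in GFP- replicate 1, from 60 reads, and 388, 374 and 390 in GFP- replicates 2 to 4. GFP+ libraries had 497, 341, 493 and 507. Oas3 had a log2 fold change of 0.59 ± 0.42 (SE, DESeq2 adjusted p = 0.463). Oasl1, which represses translation of Irf7 mRNA in mice, had 122, 86.7, 132 and 237 in GFP- and 23.6, 166, 143 and 250 in GFP+ libraries. The low value of GFP+ replicate 1 rested on 17 reads. Its log2 fold change was 0.01 ± 0.58 (SE), and the sign turned when single libraries were left out (-0.38 to 0.39).

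None of the 5 other antiviral effectors was called by DESeq2 or edgeR, and 0 had an unadjusted p under 0.05 by either tool. Bst2 encodes tetherin, which holds budding virus at the cell surface, and had the highest level per kilobase of these genes. Its normalized counts were 879, 654, 681 and 826 in GFP- and 1078, 574, 1012 and 755 in GFP+ libraries, which overlapped, for a log2 fold change of 0.16 ± 0.24 (SE, DESeq2 adjusted p = 0.794). Mx2, a dynamin-like GTPase, had 78.7, 329, 604 and 498 in GFP- and 492, 400, 562 and 688 in GFP+ libraries. Its GFP- replicate 1 was again far below the rest, from 58 reads, and the log2 fold change was 0.53 ± 0.47 (SE, DESeq2 adjusted p = 0.578). Mx1, a related GTPase whose gene is defective in most laboratory strains, had 180, 202, 374 and 253 in GFP- and 93, 226, 238 and 308 in GFP+ libraries. The log2 fold change of Mx1 was -0.17 ± 0.39 (SE, DESeq2 adjusted p = 0.871). Rsad2 (viperin) and its neighbor on chromosome 12, the nucleotide kinase gene Cmpk2, had values of 0.03 and -0.30 (DESeq2 adjusted p = 0.969 and 0.59).

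The 3 guanylate-binding protein genes, which lie close together on chromosome 3 and encode GTPases strongly induced by interferon-gamma, had negative log2 fold changes. None was called by DESeq2 or edgeR, and 1, Gbp7, had an unadjusted p under 0.05 by each tool. Gbp2 had the highest level per kilobase of exon of all 33 genes in both groups, 2574 normalized counts per kilobase in GFP- and 2232 in GFP+ cells. Per kilobase of gene span its level was 372 and 322.6, and in GFP+ cells Irf7 (464.8), Irf1 (439.1) and, by a small margin, Isg15 (324.3) were then higher. Its normalized counts were 7236, 6122, 3241 and 9302 in GFP- and 4223, 3158, 5096 and 9983 in GFP+ libraries. The libraries of one group differed 2.87-fold in GFP- and 3.16-fold in GFP+ cells, more than the means of the groups, and the log2 fold change was -0.21 ± 0.37 (SE, DESeq2 adjusted p = 0.83). The value of GFP- replicate 3 came from 295 reads, for which counting error alone gives an exact 95% Poisson interval of 2882 to 3633 normalized counts.

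Gbp7 had normalized counts of 2137, 2050, 1231 and 2931 in GFP- and 824, 1135, 1057 and 2239 in GFP+ libraries. GFP+ replicate 4 reached into the GFP- range. A log2 fold change of -0.67 ± 0.34 (SE, DESeq2 adjusted p = 0.229) became -1.06 (0.00332) when GFP+ replicate 4 was left out. Gbp3 had a value of -0.36 ± 0.29 (SE, DESeq2 adjusted p = 0.525). In all 3 genes GFP- replicate 3 was the lowest and GFP- replicate 4 the highest GFP- library, and GFP+ replicate 4 was the highest GFP+ library.

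Of the 6 other induced genes, Ifi27 alone was called. Ifi27 (ENSMUSG00000064215, chromosome 12, 103434211 to 103440239, plus strand) encodes a small hydrophobic protein of intracellular membranes. Its normalized counts were 651, 507, 352 and 601 in GFP- and 282, 210, 164 and 347 in GFP+ libraries. The lowest GFP- library, replicate 3, held 32 reads and stood just above the highest GFP+ library. Ifi27 was 2.14-fold lower in GFP+ cells, at 251 ± 80.5 (SD, n = 4) against 528 ± 132, or -1.10 ± 0.30 (SE) in log2 fold change, at an adjusted p of 0.00511 by DESeq2 and 0.0396 by edgeR. Single libraries left out gave -1.30 to -0.94.

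Ifi35, a gene for a leucine-zipper protein, had 653, 494, 418 and 619 normalized counts in GFP- and 315, 372, 429 and 425 in GFP+ libraries. Only GFP- replicate 3 lay within the GFP+ range. Ifi35 had a log2 fold change of -0.53 ± 0.22 (SE, DESeq2 adjusted p = 0.111), which became -0.61 (0.0325) when that library was left out. Parp14, a mono-ADP-ribosyltransferase gene with the highest level per kilobase of this group over both sorts of cells, had 2381, 2763, 3307 and 3334 in GFP- and 2818, 3087, 3327 and 4233 in GFP+ libraries. The groups overlapped, with a log2 fold change of 0.20 ± 0.19 (SE, DESeq2 adjusted p = 0.621). Ifi44, Rtp4 and Xaf1 had values of 0.54, 0.09 and -0.19, none of them called.

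**Figure D3:**
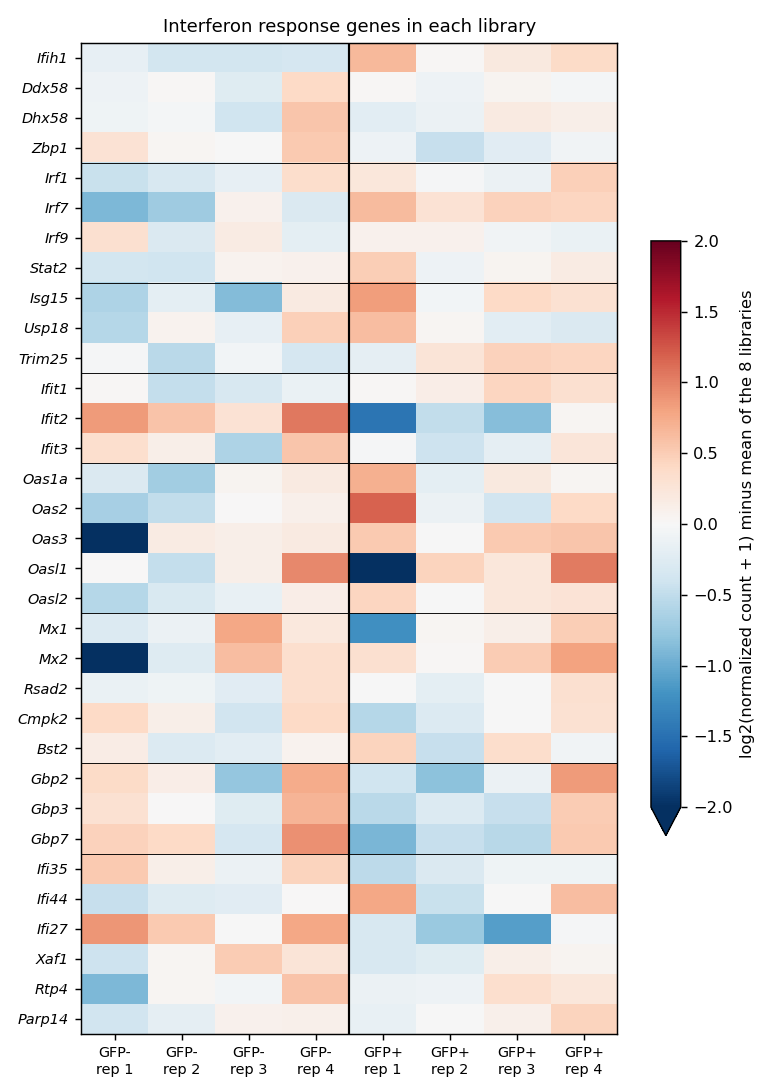
Deviation of each of the 33 genes (rows, ordered by role) in each of the 8 libraries (columns) from the gene's mean over all libraries, on the log2(normalized count + 1) scale; red is above and blue below. The darkest cells are single libraries, namely Oas3 and Mx2 in GFP- replicate 1 and Oasl1 in GFP+ replicate 1, where the lowest value is -2.32.

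The spread between libraries of one group was described by the SD of log2(normalized count + 1). Its median over the 33 genes was 0.37 in GFP- and 0.28 in GFP+ libraries, against 0.57 and 0.51 over all tested genes. From the lowest to the highest library of a group, the 33 genes differed by a median of 1.75-fold in GFP- and 1.56-fold in GFP+ cells. Spread falls with level, so each gene was also set against genes of its level. Once each gene's dispersion was set against the DESeq2 trend for its level, the median log2 ratio was -0.31 for the 33 genes and -0.39 for all tested genes. Of the 33 genes, 19 spread more widely in GFP- and 14 in GFP+ cells, and 58% of tested genes spread more widely in GFP- cells.

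A few genes carried the widest spread. In GFP- cells they were Mx2 (SD 1.32, 7.68-fold from lowest to highest library), Oas3 (SD 1.11, 4.79-fold) and Gbp2 (SD 0.65). In GFP+ cells they were Oasl1 (SD 1.48, 10.6-fold), Mx1 (SD 0.75, 3.31-fold) and Gbp2 (SD 0.71). Gbp2 was the only gene among the widest 3 of both groups. Ifih1 had the narrowest spread in GFP- cells (SD 0.10), and Ifit2, the gene that fell most, spread 2.84-fold in GFP+ and 1.71-fold in GFP- cells.

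**Figure D4:**
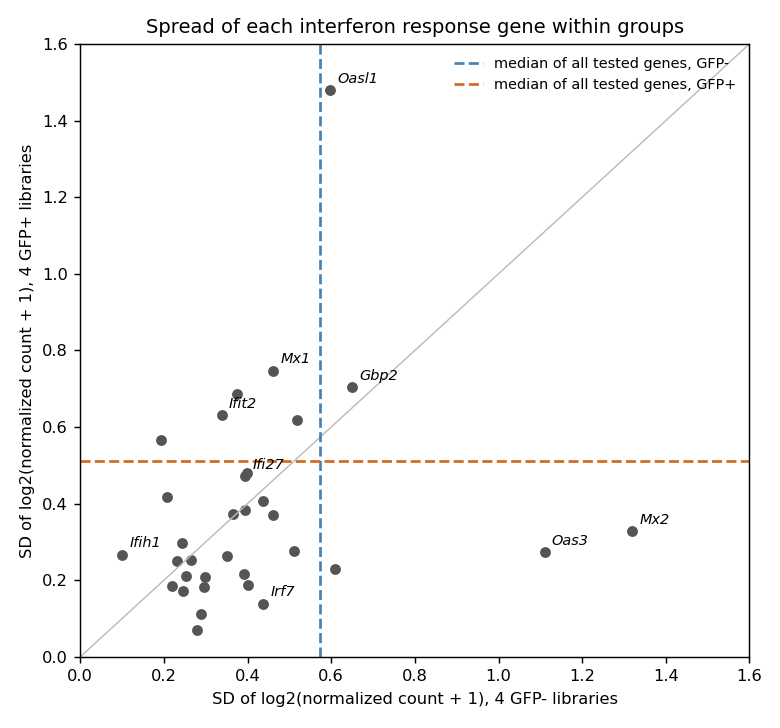
SD of log2(normalized count + 1) over the 4 GFP- libraries (x axis) against the 4 GFP+ libraries (y axis), 1 point per gene; dashed lines are the medians of all tested genes and the gray line marks equal spread. Most of the 33 points lie below both medians, with Mx2 and Oas3 wide in GFP- and Oasl1 wide in GFP+ cells.

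The genes as a whole were also compared by library. GFP- replicate 4 was the highest GFP- library for 21 of the 33 genes (63.6%), against 21.8% of all tested genes, and GFP+ replicate 4 was the highest GFP+ library for 15 (45.5%, against 22.5%). A score, the mean of log2(normalized count + 1) over the 33 genes, was 9.38, 9.46, 9.49 and 9.89 in GFP- and 9.54, 9.43, 9.60 and 9.88 in GFP+ libraries. Replicate 4 was the highest in each group. The group means were 9.55 ± 0.23 (SD, n = 4) and 9.61 ± 0.19, a difference of 0.06 that was smaller than either SD, and with 1 library left out it ran from -0.03 to 0.17. By role, the score of the transcription factors was 10.28 ± 0.23 in GFP- and 10.65 ± 0.14 in GFP+ cells (SD, n = 4), and that of the ISG15 system 9.21 ± 0.23 and 9.65 ± 0.15. The OAS score was 0.37 higher in GFP+ cells, less than its SD of 0.45 in GFP- cells. The IFIT score was 10.28 ± 0.33 and 9.91 ± 0.29, and the guanylate-binding protein score 11.56 ± 0.51 and 11.12 ± 0.57, a difference smaller than either SD.

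Markers of the sorted cells and of other cell types were read in the same libraries. Of all tested genes, DESeq2 called 4.66% higher and 4.76% lower in GFP+ cells, and edgeR 2.83% and 2.28%. Of 10 stromal markers, 8 were called higher in GFP+ cells by DESeq2 and 6 by edgeR, and all 10 had positive log2 fold changes. Among these, the call of Col3a1 was lost when GFP+ replicates 1, 2 and 3 and GFP- replicate 3 were left out in turn (DESeq2 adjusted p from 0.0672 to 0.0895). Their summed normalized counts were 562044, 548989, 442382 and 255243 in GFP- and 671107 to 768499 in GFP+ libraries, so GFP- replicate 4, the highest GFP- library for most of the 33 genes, was the lowest in stromal markers. All 10 melanoma markers, pigment cell genes such as Tyr, Pmel and Mlana, were called lower in GFP+ cells by DESeq2, with a median log2 fold change of -3.07, and all but Gpr143 by edgeR (adjusted p = 0.0966). With DESeq2 the call of Gpr143 was lost without GFP- replicate 4 (0.17). Oca2, at a DESeq2 adjusted p of 0.0493, was lost without any 1 of 6 libraries (all GFP- replicates and GFP+ replicates 3 and 4, 0.051 to 0.197). Their summed normalized counts were 49660, 45203, 24502 and 71737 in GFP- and 4512, 7344, 4569 and 11380 in GFP+ libraries, and only Gpr143 was at 0, in GFP+ replicate 1. Replicate 3 was thus lowest and replicate 4 highest within GFP-, and replicate 4 highest within GFP+. The 4 GFP- libraries had the same order in 6 of the 33 genes (Zbp1, Ifit2, Ifit3, Gbp2, Gbp3 and Gbp7), or 18.2% against 3.8% of tested genes, and all 6 had negative log2 fold changes. The 4 GFP+ libraries followed the order of their melanoma marker sums in Ifit2, Oasl1, Gbp3 and Gbp7 (12.1%, against 8.1%). Of these, only Oasl1 (0.01) had a positive log2 fold change. In 10 of the 33 genes (30.3%, against 8.28%) GFP- replicate 4 was highest and GFP- replicate 3 lowest. Among them Isg15 (0.68) and Rsad2 (0.03) had positive log2 fold changes and the others negative ones. The part of stromal and melanoma transcripts in the values of the interferon response genes was not tested.

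None of 18 leukocyte markers tested by DESeq2 or of the 16 tested by edgeR was called. At an unadjusted p under 0.05 the counts were 1 by DESeq2 (Siglech, which edgeR did not test) and 0 by edgeR. Their summed normalized counts were 1808, 1347, 8087 and 3038 in GFP- and 1887, 6415, 1562 and 3251 in GFP+ libraries, highest in GFP- replicate 3 and GFP+ replicate 2. The interferon response score was highest in replicate 4 of each group, and any relation to the leukocyte sums was not tested. Ptprc, the gene of CD45, had 119.4 to 1703 normalized counts, Lyz2 241.5 to 1571 and Ctss 300.3 to 1022. These genes were detected in every library. Cd3g, a T cell gene, was at 0 in GFP- replicates 1 and 2 and in GFP+ replicates 1 and 3. Of 7 tested endothelial markers, Vwf alone was called, lower in GFP+ cells, where 4.76% of all tested genes were called lower. At an unadjusted p under 0.05 by DESeq2 the endothelial count was 3, against 21% of all tested genes. Pecam1, the gene of CD31, was called higher without GFP- replicate 3 (log2 fold change 1.31, DESeq2 adjusted p = 0.00439), as was Kdr without GFP+ replicate 4 (1.46, 0.000774). The summed counts of all 10 ran from 1492 to 2934 in GFP- and from 1908 to 3560 in GFP+ libraries, mostly Kdr and Tek, while the defining genes Cdh5, Tie1 and Emcn had 0 to 29.4 normalized counts. Pecam1 had 80.98 to 516.4 normalized counts and was detected in every library. The part of leukocyte and endothelial RNA was not tested.

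**Figure D5:**
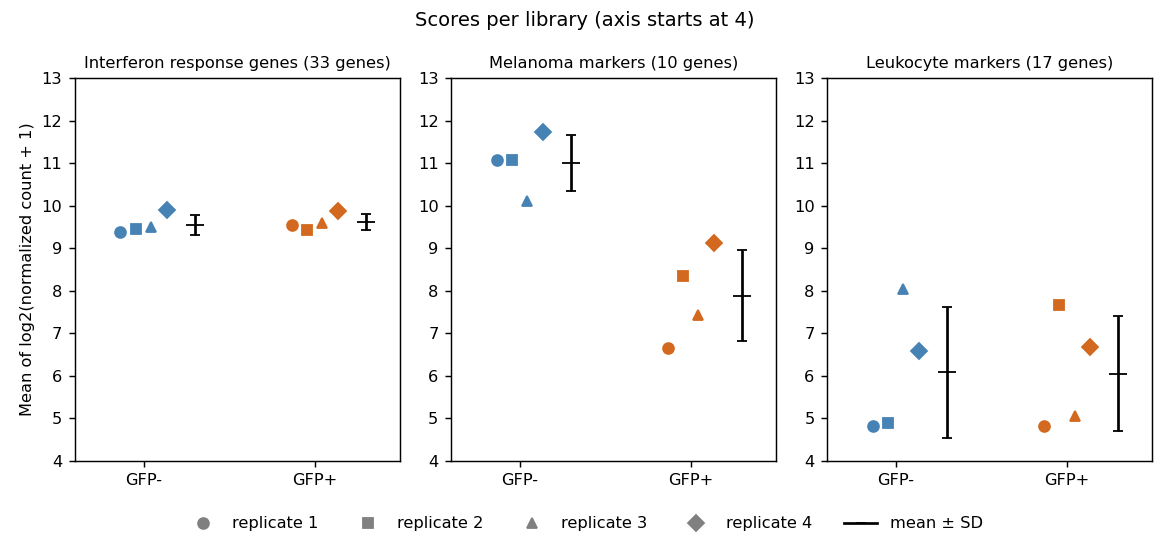
Mean of log2(normalized count + 1) per library (y axis, starting at 4) for the 33 interferon response genes, 10 melanoma markers and 17 leukocyte markers; symbols mark the replicate number and bars the mean ± SD of 4 libraries. The interferon response score overlaps between groups at 9.55 ± 0.23 and 9.61 ± 0.19, whereas the melanoma score of every GFP- library lies above every GFP+ library.

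The rest of the pathway was described with 121 further genes in lists of ligands, receptors, signaling partners, regulators and other targets. Reads were found for 97 of them and 90 were tested, of which 16 rose and 3 fell by DESeq2, where 4.66% of all tested genes were called higher and 4.76% lower. The edgeR test called 12 higher and 1 lower, against 2.83% and 2.28%. Leaving out single libraries gave 10 to 18 risen and 1 to 8 fallen genes, with the fewest risen without GFP+ replicate 3 or GFP- replicate 2 and the most fallen without GFP- replicate 3. In 11 of the 121, among them Myd88, Irf8 and Gbp4, at least 95% of the gene lies inside another gene on the same strand, so their counts at or near 0 say nothing of expression.

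Interferon ligands were near the detection limit. Of 21 ligand genes, 18 had no read in any library. Ifnb1, the first type I interferon that stromal cells make on infection, had 0 to 17.2 normalized counts, and Ifng 0 to 8.05, in a span of which 56.2% is shared. Whether these genes differed was not detectable at this depth.

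Among the 6 tested receptors, Ifngr1 and Ifnar2 rose, where 4.66% of all tested genes were called higher. Ifngr1, the ligand-binding chain for interferon-gamma, had 914, 1011, 1066 and 928 normalized counts in GFP- and 1293, 1520, 1828 and 1597 in GFP+ libraries, without overlap. Its log2 fold change was 0.68 ± 0.16 (SE, DESeq2 adjusted p = 0.00106, edgeR 0.0246). Ifnar2 had 225, 235, 242 and 286 in GFP- and 444, 369, 343 and 374 in GFP+ libraries, also without overlap. Its log2 fold change of 0.62 ± 0.20 (SE) had a DESeq2 adjusted p of 0.0306 but an edgeR adjusted p of 0.134. That call was lost without any 1 of 6 libraries (GFP- replicates 1 and 2 and all 4 GFP+ replicates, DESeq2 adjusted p from 0.0737 to 0.154), and 42.3% of the gene is shared. Partner chains Ifnar1 and Ifngr2 had values of 0.09 and -0.08, Il10rb -0.26 and Ifnlr1 -2.93, the last from 0 to 22 normalized counts, and none was called.

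Of 5 receptor kinases and STAT partners, Jak1, the kinase that both receptor types use, alone rose, against 4.66% of all tested genes. Jak1 had 5640, 5783, 8361 and 4686 normalized counts in GFP- and 10969, 9820, 11109 and 9079 in GFP+ libraries, and its log2 fold change was 0.75 ± 0.20 (SE, DESeq2 adjusted p = 0.00349, edgeR 0.0266). Of 7 negative regulators, 2 rose, against 4.66% of all tested genes. These were the feedback inhibitors Socs1 and Socs3, with log2 fold changes of 0.94 ± 0.29 and 0.73 ± 0.20 (SE, DESeq2 adjusted p = 0.0173 and 0.00534, edgeR 0.0508 and 0.0297). The DESeq2 call of Socs1 was lost without GFP- replicate 2 (0.0783) and when GFP+ replicates 1 and 3 were left out in turn (0.0513 and 0.0697). None of 12 tested genes of upstream sensing was called by DESeq2 or edgeR, and 1 had an unadjusted p under 0.05 by DESeq2 and 0 by edgeR.

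Of 37 tested type I targets, 8 rose and 2 fell, against 4.66% and 4.76% of all tested genes, with a median log2 fold change of 0.24. Slfn5, a Schlafen family gene, rose by 1.31 ± 0.16, Ly6e, a membrane-anchored protein gene, by 1.28 ± 0.20 and Ifi204, a DNA sensor gene, by 1.05 ± 0.15 on the log2 scale (SE, DESeq2 adjusted p = 1.56e-13, 3.88e-08 and 2.91e-10, edgeR 0.00105, 0.00156 and 0.00134). Herc6, which encodes the ligase for Isg15 in mice, had a value of -1.72 ± 0.50 (SE, DESeq2 adjusted p = 0.0106, edgeR 0.059), lost without GFP- replicate 1 (0.0526) or GFP- replicate 4 (0.057), and 53.8% of it is shared. The other 6 called were Ifi27l2a, Ifitm3, Lgals3bp, Slfn8 and Eif2ak2, which rose, and Parp12, which fell. The calls of Lgals3bp, Slfn8 and Eif2ak2 were lost without 3, 6 and 7 of the 8 libraries in turn, with adjusted p up to 0.0731, 0.15 and 0.152, whereas Ifi27l2a, Ifitm3 and Parp12 were called in each of these fits. By edgeR, Slfn8 and Eif2ak2 were not called (adjusted p = 0.0879 and 0.136).

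Of 22 tested interferon-gamma targets, 3 rose and 1 fell, against 4.66% and 4.76% of all tested genes, with a median log2 fold change of -0.31. The share that fell was close to that of all tested genes. At an unadjusted p under 0.05 the count was 12 by DESeq2 and 12 by edgeR, against 21% of all tested genes by DESeq2. Without GFP- replicate 3, Tgtp2, Tap2, Psmb10, Psme1 and Psme2 were also called lower (DESeq2 adjusted p from 0.00222 to 0.0392). Psmb9 was called lower without GFP+ replicate 4 (0.00959) or GFP- replicate 2 (0.0468). Serping1, a complement inhibitor gene, rose by 1.03 ± 0.16 on the log2 scale (SE, DESeq2 adjusted p = 7.02e-09, edgeR 0.00175). The chemokine gene Cxcl9, which draws T cells, had 1971, 1519, 1637 and 2139 normalized counts in GFP- and 4333, 1969, 5021 and 11482 in GFP+ libraries. GFP+ replicate 2 lay within the GFP- range and replicate 4 far above the rest. Its log2 fold change was 1.65 ± 0.41 (SE, DESeq2 adjusted p = 0.00137, edgeR 0.0285), and the call was lost without GFP- replicate 1 (0.0714) or GFP- replicate 4 (0.0685). Cxcl10 rose by 0.77 ± 0.24 (SE, DESeq2 adjusted p = 0.0167, edgeR 0.0484), a call lost without GFP- replicate 2 (0.0746) and also when GFP+ replicates 1, 3 and 4 were left out in turn (0.0517, 0.073 and 0.0516). Ciita, the master regulator of MHC class II genes, had a value of -2.01 ± 0.60 (SE, DESeq2 adjusted p = 0.0141, edgeR 0.0756), lost without GFP+ replicate 3 (0.0671) or GFP- replicate 4 (0.0988).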

How the data were processed

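RNA had been sequenced from 8 libraries made with a stranded total RNA kit. The authors' methods state that reads were trimmed with cutadapt 3.4. They mapped reads to GRCm38 with STAR 2.7.3a and counted them per gene with featureCounts 2.0.1, using the strand. The authors deposited raw counts per gene and library, which were used here, and a rounded normalized score per gene and library, which was used only to check size factors. The table's own fold changes and p-values were not used. Per-sample columns left unused: 0.

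Counts were fitted with DESeq2 1.42.0 in R 4.3.3 (group as the only term, Wald tests, Benjamini-Hochberg adjustment over 15283 genes, threshold 0.05). Alternatives were edgeR 4.0.16, TMM factors, other filters, a replicate block and each library left out. On simulated counts of 29043 genes DESeq2 found 49 of 100 genes changed by 1 on the log2 scale and 92 of 100 changed by 2, with 81 false calls, and edgeR 22 and 73 with 6, so edgeR values or calls are given beside most DESeq2 calls. No replicates were closer than independent libraries (chi-square per degree of freedom at least 9.68). Gene positions came from GENCODE M21, which held 99.82% of the gene IDs, and levels per kilobase use exon length outside other genes unless gene span is named, although counts took in whole spans.

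Genes given in every library were those called and the highest per kilobase in each role group over both groups of cells. Also given were those with the 5 largest and 5 smallest log2 fold changes and the 3 widest spreads of each group. Ifit1 was added after its values were seen, as a gene without overlap between groups. Called pathway genes were limited to 4 per list, with every receptor. Members and lists were chosen with earlier results of these data known.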

Additional observations from a re-analysis of the deposited data

Results flagged for a closer look

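Of 68 groups of 4 values (each gene, and the score, in each group), 3 held a library that stood apart from the other 3 by Dixon's test at the 95% level, where chance alone gives about 1 in 20. Oas3 in GFP- replicate 1 was at 81.4 normalized counts, with the other GFP- libraries at 374 to 390. Oas3 in GFP+ replicate 2 was at 341, with the others at 493 to 507. Ifih1 in GFP- replicate 1 was at 1296, with the others at 1121 to 1146, a difference that narrowed the gap to the GFP+ libraries.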

How the results depend on the processing

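Across 14 alternative fits the directions of the 4 called genes held, and Irf7, Ifit2 and Ifi27 were called in each. All 1439 calls became 732 with edgeR, which called 1 pathway gene lower instead of 3. With a replicate block, 4 genes of the 33 were called lower instead of 2, the additions being Zbp1 and Gbp7, and 9 pathway genes lower. The replicate numbers were not taken as pairs: deviations of same-numbered libraries correlated at 0.16, -0.15, -0.12 and 0.24 over 13994 genes, and the labels do not say which libraries share an animal. Leaving out 1 library gave 969 to 1837 calls in all, 3 to 6 among the 33 genes (1 to 3 higher, 2 to 4 lower) and 12 to 26 among pathway genes (10 to 18 higher, 1 to 8 lower). With 1 library left out, uncalled values changed sign for Ddx58, Dhx58, Irf9, Usp18, Rsad2 and Rtp4, and, among genes given in every library, Gbp2 (-0.64 to 0.018), Mx1 (-0.39 to 0.11) and Oasl1 (-0.38 to 0.39, and -0.23 with the replicate block). Median spread with 1 library left out was 0.28 to 0.42 in GFP- and 0.24 to 0.32 in GFP+ cells. GFP- replicate 3 had the fewest reads and the largest counting error. Without it Zbp1 and Ifi35 were added to the calls, and the cause was not tested.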
